A study of Mus musculus with 6 samples.

Results

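A set of 10 genes, of 22001 in the count table, encodes structural and metabolic proteins by which radial glia are recognised: Nes and Vim, Fabp7, Slc1a3, Glul, Aldoc, Prom1, Ttyh1, Mfge8 and Ptprz1. They were chosen by symbol, and each symbol matched 1 row. Values were compared between 3 Insm1 libraries, from mouse embryonic neocortex electroporated in utero with a plasmid for Insm1 and mCherry, and 3 Control libraries, from neocortex electroporated with a plasmid for mCherry alone. In every library, cells were electroporated at E13.5, taken 24 h later at E14.5 and sorted for mCherry. The labels name neither the strain and sex of the embryos nor the promoter in the plasmids nor how many embryos made up a library. Sorted cells at that time hold the progenitors that took up plasmid at the ventricle and the daughter cells they have since produced.

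Radial glia are the apical progenitors of the cortex. Their cell bodies lie at the ventricle, a long fibre filled with nestin and vimentin runs to the pial surface, and they share with later astrocytes the uptake of glutamate, its conversion to glutamine and the carriage of fatty acids. Daughter cells that commit to neurogenesis, a step in which the zinc-finger factor Insm1 takes part, leave the ventricular surface and lose these features. In bulk RNA from sorted cells, fewer radial glia and less RNA per radial glial cell cannot be told apart.

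Of these genes 8 fell with Insm1, none rose and 2, Prom1 and Glul, did not pass the test, where 3.35% of the 13560 genes tested were called, 2.12% lower and 1.23% higher. The calls are from edgeR's quasi-likelihood test at a Benjamini-Hochberg adjusted p below 0.05. All 10 genes passed the filter on low counts, with between 858 and 26413 counts in a library. The median log2 fold change of the 10 was -0.80, against -0.0086 over all genes tested. The Insm1 libraries lay below every Control library in 9 of the 10 and above every Control library in none, where 11.8% of all genes tested lay below and 10.4% above. Together the 10 genes took 0.148%, 0.143% and 0.125% of all counts in Insm1 libraries 1, 2 and 3, and 0.235%, 0.211% and 0.219% in Controls 1, 2 and 3. The count of 8 became 4 without Control 3 and 5 without Control 1. It was 6 without Insm1 library 2, 7 without Insm1 library 1 and 8 without Control 2 or Insm1 library 3.

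**Figure D1:**
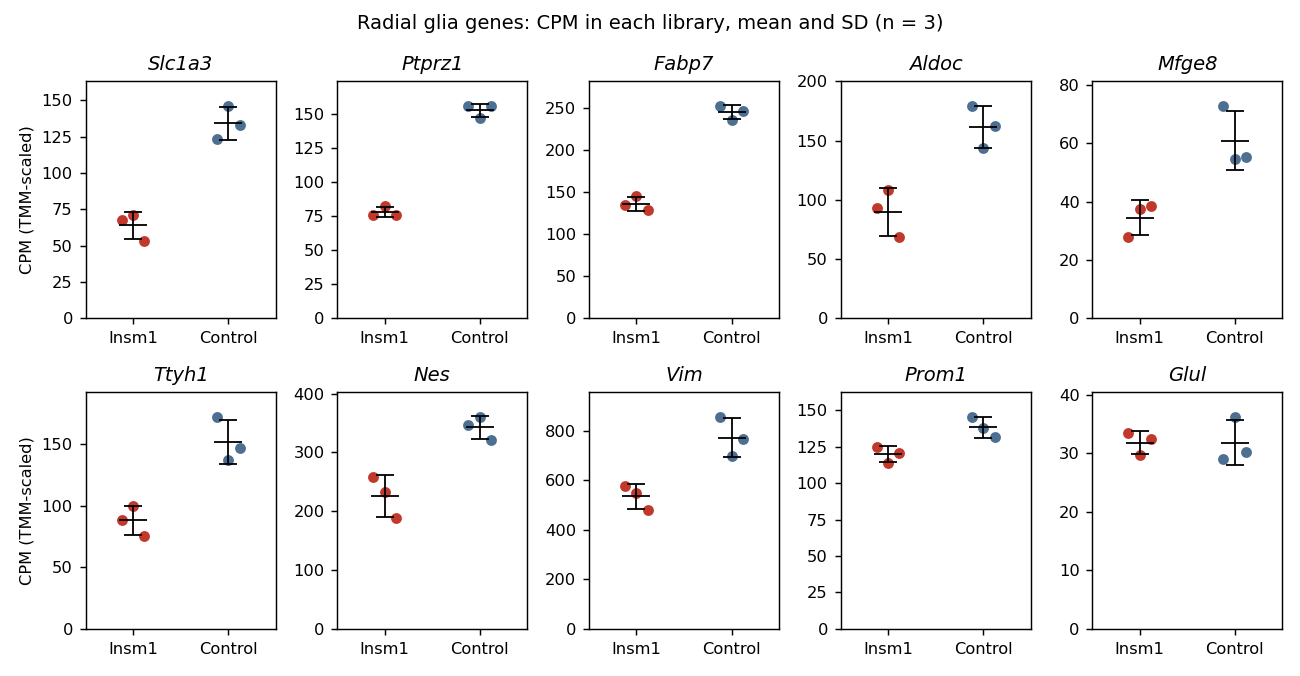
CPM (TMM-scaled counts per 1000000 counts, y axis from 0) of each gene in each library, with Insm1 libraries in red and Control libraries in blue. Horizontal marks are means and bars are SDs over 3 libraries. The groups are apart in every panel except Glul.

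Library totals lay between 30017645 and 31645135 counts. Values per library are CPM, counts per 1000000 counts after TMM scaling. Insm1 itself, counted without telling plasmid from chromosomal transcripts, was at 1569.6, 2173 and 1436 CPM in the Insm1 libraries and 222, 331 and 371 CPM in the Controls (log2 fold change 2.49, SE 0.26, edgeR adjusted p = 0.0122). Neocortical markers were abundant, among them the neuronal tubulin gene Tubb3 at 2285 ± 38.4 CPM in Insm1 and 1746 ± 80.0 CPM in Control libraries (SD, n = 3 each). Nes and Vim are also genes of vessels and meninges. The 6 endothelial markers summed to between 0.582 and 2.14 CPM in Insm1 libraries and between 0.357 and 0.809 CPM in Controls. The 6 meningeal markers summed to between 2.40 and 3.36 CPM in Insm1 libraries and between 3.04 and 3.89 CPM in Controls. Red-cell genes differed between libraries. The 6 of them summed to between 3497 and 4891 CPM in the Insm1 libraries, and to 715 CPM in Control 1, 5258 CPM in Control 2 and 307 CPM in Control 3. The part of red-cell transcripts in the results was not tested.

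The promoters of the 3 genes with the lowest p-values and of the 2 that did not pass are shown so that the sequences of genes that fell and genes that were not called can be set side by side. Each runs from 250 bases before to 50 after the RefSeq transcript start on GRCm38.p6, in the direction of the gene: Slc1a3 at chr15:8710758-8711057 (minus strand), Ptprz1 at chr6:22875252-22875551 (plus strand), Fabp7 at chr10:57784673-57784972 (plus strand), Prom1 at chr5:44101687-44101986 (minus strand, the first of 2 listed starts) and Glul at chr1:153899679-153899978 (plus strand). Capitals mark, on either strand, the E-box CANNTG bound by proneural and related factors, the Hes-type site CACGNG, the RBPJ core TGGGAA of Notch signalling, and a loosened form of the Insm1 consensus that keeps its GGGG core and a few bases around it. The letters CACGTG match both the E-box and the Hes-type site.
Slc1a3: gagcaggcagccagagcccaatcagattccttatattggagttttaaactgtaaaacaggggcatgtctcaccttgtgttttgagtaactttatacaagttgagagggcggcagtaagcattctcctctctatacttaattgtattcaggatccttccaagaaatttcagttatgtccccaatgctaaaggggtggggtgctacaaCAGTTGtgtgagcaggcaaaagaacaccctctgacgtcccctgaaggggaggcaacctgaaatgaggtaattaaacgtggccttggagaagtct
Ptprz1: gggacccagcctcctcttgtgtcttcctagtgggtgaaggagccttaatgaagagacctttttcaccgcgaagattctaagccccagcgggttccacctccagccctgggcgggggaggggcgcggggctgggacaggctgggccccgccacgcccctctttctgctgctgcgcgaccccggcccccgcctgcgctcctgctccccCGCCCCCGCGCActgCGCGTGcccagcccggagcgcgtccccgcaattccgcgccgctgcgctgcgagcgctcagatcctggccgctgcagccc
Fabp7: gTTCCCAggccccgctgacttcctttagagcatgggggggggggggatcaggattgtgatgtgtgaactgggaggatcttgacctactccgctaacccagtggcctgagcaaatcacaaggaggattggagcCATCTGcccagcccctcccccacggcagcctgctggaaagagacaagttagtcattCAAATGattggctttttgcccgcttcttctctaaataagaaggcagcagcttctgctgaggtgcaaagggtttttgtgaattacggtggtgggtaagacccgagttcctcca
Prom1: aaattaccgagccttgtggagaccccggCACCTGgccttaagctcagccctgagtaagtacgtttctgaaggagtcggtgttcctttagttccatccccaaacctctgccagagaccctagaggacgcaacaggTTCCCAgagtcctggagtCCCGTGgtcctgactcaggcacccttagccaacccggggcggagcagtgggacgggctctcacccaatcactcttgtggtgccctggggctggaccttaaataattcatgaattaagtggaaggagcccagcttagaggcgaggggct
Glul: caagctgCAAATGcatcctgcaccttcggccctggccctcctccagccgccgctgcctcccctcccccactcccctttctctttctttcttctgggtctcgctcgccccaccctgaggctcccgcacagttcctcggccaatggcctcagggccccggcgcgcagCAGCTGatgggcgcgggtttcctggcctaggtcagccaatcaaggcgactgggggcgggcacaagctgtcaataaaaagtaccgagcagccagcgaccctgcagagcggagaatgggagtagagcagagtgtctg

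The loosened Insm1 form occurs in 2 of the 12 promoters of the 10 genes, 1 of Ptprz1 and 1 of Aldoc, and in 4.68% of the 32851 promoters of this length in the RefSeq table. The published consensus, not loosened, is in none of the 12 promoters of the 10 genes and in 0.216% of all promoters. The E-box is in 7 of the 12 promoters, from 7 of the 10 genes, and in 72.3% of all. The RBPJ core is in 5 of the 12, from Prom1, Mfge8, Fabp7 and Aldoc, and in 25.6% of all. The Hes-type site is in 2 of the 12, from Prom1 and Ptprz1, and in 27.5% of all. The printed promoters differ in composition, with 29 CpG in that of Ptprz1, 17 in that of Glul and 10 in that of Prom1. That of Fabp7 has 6 and that of Slc1a3 has 3, where the median over all promoters is 7. A match to such letters is a description of the sequence and shows no binding.

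Both filament genes fell, with the smallest fold changes of the 8 genes that were called. Nes (ENSMUSG00000004891; chromosome 3, 87971078 to 87980451, plus strand) encodes nestin, the large intermediate filament protein of neural progenitors. It was at 259, 233 and 188 CPM in Insm1 libraries 1, 2 and 3 and at 347, 359.9 and 322 CPM in Controls 1, 2 and 3. The groups did not overlap, and Insm1 library 3 was the lowest of the 6. Nes was 1.51-fold lower (log2 fold change -0.60, SE 0.11, edgeR adjusted p = 0.0157), and lost the call without Control 1 (adjusted p = 0.0548), Control 3 (0.0546) or Insm1 library 2 (0.0535). Vim (ENSMUSG00000026728; chromosome 2, 13573927 to 13582826, plus strand) encodes vimentin, with which nestin assembles into filaments. It was at 576, 548 and 481 CPM in the Insm1 libraries and at 855, 697 and 766 CPM in the Controls. The highest Insm1 library was below the lowest Control, and Vim was 1.44-fold lower (log2 fold change -0.53, SE 0.09, edgeR adjusted p = 0.0116). That call was lost without Control 3 (0.0615).

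The ratio of Vim to Nes counts within a library was 2.23, 2.35 and 2.56 in the Insm1 libraries and 2.46, 1.94 and 2.38 in the Controls. These overlapped, and the exact two-sided permutation test gave p = 0.7 for a difference of 0.08 in log2 ratio. Leaving out Control 2 turned that difference to -0.028. Of 12 other filament and linker genes 9 were tested, and none was called in either direction, with a median log2 fold change of -0.08. The most abundant, the nuclear lamin gene Lmnb1, was at 317 ± 49.1 CPM in Insm1 and 332 ± 18.5 CPM in Control libraries (SD, n = 3 each; edgeR adjusted p = 0.820). The neuronal filament gene Ina was at 91.8 ± 10.5 CPM in Insm1 and 132 ± 35.7 CPM in Control libraries (SD, n = 3 each), with overlapping groups (edgeR adjusted p = 0.212). The spectraplakin gene Dst, whose product links filaments to other structures, was at 198 ± 13.48 and 199.6 ± 25.4 CPM in Insm1 and Control libraries (SD, n = 3 each; edgeR adjusted p = 0.976). Gfap, the filament gene of mature astrocytes, had 0 counts in all 6 libraries, which allows up to 3 counts in a library, or between 0.0948 and 0.0999 CPM.

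Fabp7 (ENSMUSG00000019874; chromosome 10, 57784881 to 57788450, plus strand) encodes the brain fatty acid-binding protein of radial glia. It was at 134, 145 and 129 CPM in the Insm1 libraries and at 252, 236 and 247 CPM in the Controls. The spread within a group was narrow, with a coefficient of variation of 6.18% in Insm1 and 3.27% in Control libraries, and the groups were far apart. Fabp7 was 1.80-fold lower (log2 fold change -0.85, SE 0.07, edgeR adjusted p = 0.00113), second by p-value among the 13560 genes tested. Its paralogue Fabp5, which binds fatty acids in many cell types, was at 199.0 ± 6.17 CPM in Insm1 and 184 ± 10.6 CPM in Control libraries (SD, n = 3 each; edgeR adjusted p = 0.448). The count ratio of Fabp7 to Fabp5 was 0.658, 0.719 and 0.670 in the Insm1 libraries and 1.31, 1.37 and 1.31 in the Controls, and no Insm1 library reached the Control values. Of 10 genes of lipid binding and fatty acid handling, 1 fell and none rose, with a median log2 fold change of -0.19. The gene that fell was Dbi, which encodes the acyl-CoA-binding protein, at 131 ± 10.97 CPM in Insm1 and 180.1 ± 4.24 CPM in Control libraries (SD, n = 3 each; edgeR adjusted p = 0.0111, called in 5 of the 6 fits with a library left out).

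Slc1a3 (ENSMUSG00000005360; chromosome 15, 8634124 to 8710764, minus strand) encodes the glutamate transporter GLAST, which clears glutamate from the extracellular space. It was at 67.7, 70.9 and 53.0 CPM in the Insm1 libraries and at 124, 146 and 133 CPM in the Controls. No Insm1 library came near the lowest Control. Slc1a3 was 2.10-fold lower (log2 fold change -1.07, SE 0.11, edgeR adjusted p = 0.00386), the lowest log2 fold change of the 10 genes. Its paralogue Slc1a2, the transporter that dominates in mature astrocytes, was scarce, at 7.86 ± 2.54 CPM in Insm1 and 10.003 ± 4.54 CPM in Control libraries (SD, n = 3 each; edgeR adjusted p = 0.709). The ratio of Slc1a3 to Slc1a2 counts overlapped between the groups, from 6.74 to 10.5 in Insm1 libraries and from 8.49 to 26.6 in Controls (difference in log2 ratio -0.78, exact two-sided permutation p = 0.2), and the difference was -0.34 without Control 2 and -1.17 without Control 1.

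Glul (ENSMUSG00000026473; chromosome 1, 153899944 to 153909723, plus strand) encodes glutamine synthetase, which turns the glutamate that glia take up into glutamine. It was at 33.4, 29.7 and 32.4 CPM in the Insm1 libraries and at 29.0, 36.2 and 30.2 CPM in the Controls. The groups overlapped, and the log2 fold change was 0.0022 with an SE of 0.12 (edgeR adjusted p = 0.997), between -0.05 and 0.11 with single libraries left out. The count ratio of Slc1a3 to Glul separated the groups, through the fall of Slc1a3. That ratio was 2.03, 2.38 and 1.64 in the Insm1 libraries and 4.27, 4.03 and 4.40 in the Controls. Of the 75-base stretches of Glul transcripts, 6.63% also occur in transcripts of other genes, among them a pseudogene and Teddm2, which lies on the other strand and had at most 0.194 CPM in Insm1 and 0.259 CPM in Control libraries. Of 11 other genes of glutamate and glutamine handling none was called, and their median log2 fold change was -0.28. The most abundant, the glutamine transporter gene Slc38a2, was at 1040 ± 142 CPM in Insm1 and 918 ± 107 CPM in Control libraries (SD, n = 3 each; edgeR adjusted p = 0.458).

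Aldoc (ENSMUSG00000017390; chromosome 11, 78322968 to 78327781, plus strand) encodes aldolase C, the brain form of a glycolytic enzyme, found in radial glia and astrocytes. It was at 93.0, 108 and 68.5 CPM in the Insm1 libraries and at 179, 144 and 162 CPM in the Controls. The groups did not overlap, although the Insm1 libraries were spread more widely than for any other of the 10 genes, with a coefficient of variation of 22.4%. Aldoc was 1.80-fold lower (log2 fold change -0.84, SE 0.15, edgeR adjusted p = 0.0207), and lost the call without Control 1 (adjusted p = 0.0688), Control 3 (0.0789) or Insm1 library 1 (0.0664). Aldoa, the aldolase gene expressed in most tissues, was at 199 ± 6.58 CPM in Insm1 and 205 ± 12.2 CPM in Control libraries (SD, n = 3 each; edgeR adjusted p = 0.836). The count ratio of Aldoc to Aldoa was 0.449, 0.553 and 0.350 in the Insm1 libraries and 0.872, 0.745 and 0.746 in the Controls. Of 15 other glycolytic genes 1 fell, none rose and the median log2 fold change was -0.09. The gene that fell was Ldha, a lactate dehydrogenase gene, at 315 ± 6.45 CPM in Insm1 and 414 ± 44.3 CPM in Control libraries (SD, n = 3 each; edgeR adjusted p = 0.0236), a call kept in 1 of the 6 fits with a library left out.

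**Figure D2:**
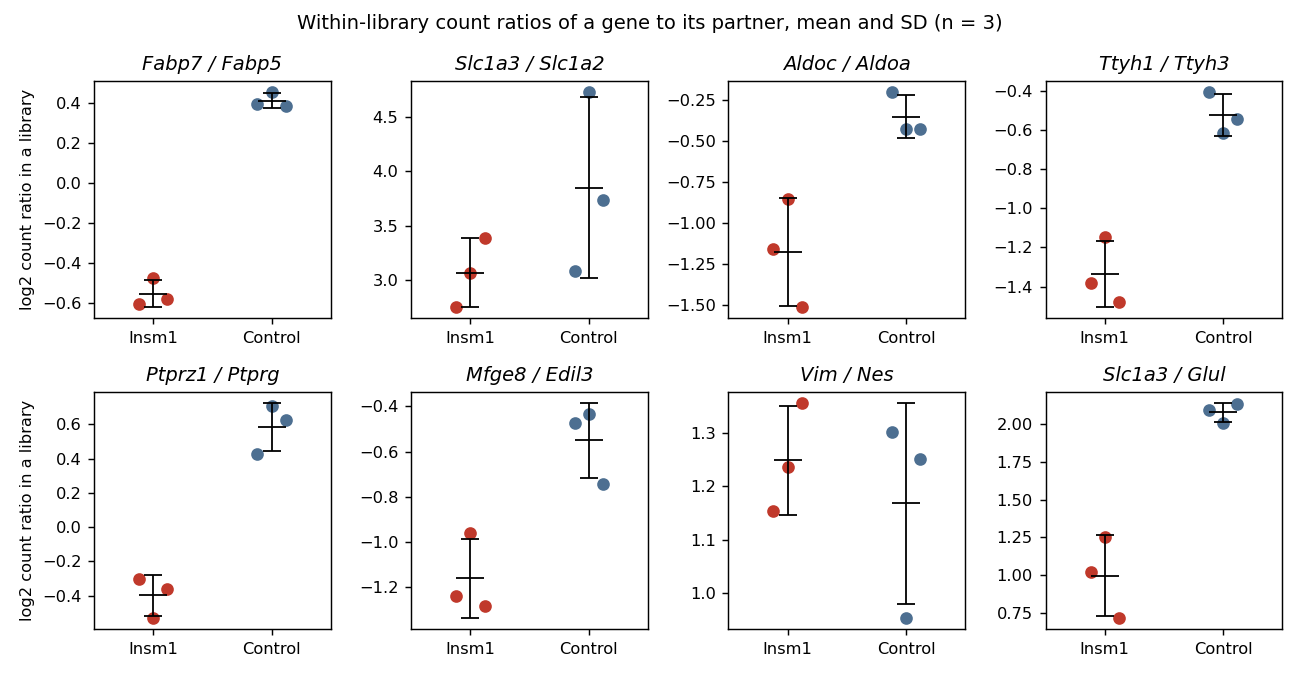
Log2 of the count ratio of each gene to its partner (y axis) in each Insm1 (red) and Control (blue) library, with the mean and SD over 3 libraries. The groups are apart for 6 of the 8 pairs and overlap for Slc1a3 to Slc1a2 and for Vim to Nes.

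Prom1 (ENSMUSG00000029086; chromosome 5, 43993620 to 44102032, minus strand) encodes prominin-1, the CD133 protein of membrane protrusions and cilia at the apical surface. It was at 125, 114 and 121 CPM in the Insm1 libraries and at 145, 138 and 131 CPM in the Controls. Every Insm1 library was below every Control, by a small margin, and the log2 fold change was -0.21 with an SE of 0.07 (edgeR adjusted p = 0.158). It lay between -0.24 and -0.16 with single libraries left out, and none of those fits called it. Transcripts of Prom1 share 3.65% of their 75-base stretches with other genes, among them Gm16401 on the other strand, which had at most 4.41 CPM in Insm1 and 3.36 CPM in Control libraries. The paralogue Prom2 had too few counts to be tested.

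Ttyh1 (ENSMUSG00000030428; chromosome 7, 4119408 to 4136708, plus strand) encodes a tweety-family membrane protein of neural stem cells and glia. It was at 88.6, 99.5 and 75.7 CPM in the Insm1 libraries and at 172, 137 and 147 CPM in the Controls. The groups did not overlap, and Ttyh1 was 1.73-fold lower (log2 fold change -0.79, SE 0.11, edgeR adjusted p = 0.00745). Its relative Ttyh3 was at 221 ± 10.2 CPM in Insm1 and 217 ± 9.003 CPM in Control libraries (SD, n = 3 each; edgeR adjusted p = 0.907), and the count ratio of Ttyh1 to Ttyh3 was 0.383, 0.452 and 0.359 in the Insm1 libraries and 0.755, 0.652 and 0.686 in the Controls. Ttyh1 also overlaps annotated antisense transcripts, which were not analysed here. Of 9 other genes of the prominin and tweety families and the apical membrane 8 were tested and none was called, with a median log2 fold change of -0.02. They include Ezr, whose product ezrin ties apical membrane to actin, at 387 ± 19.2 CPM in Insm1 and 356 ± 28.5 CPM in Control libraries (SD, n = 3 each; edgeR adjusted p = 0.451).

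Mfge8 (ENSMUSG00000030605; chromosome 7, 79133768 to 79149060, minus strand) encodes a secreted protein that bridges phosphatidylserine on dying cells to integrins on the cells that engulf them. It was the least counted of the genes that fell, at 27.7, 37.3 and 38.4 CPM in the Insm1 libraries and 72.7, 54.6 and 55.5 CPM in the Controls. Insm1 library 1 was the lowest and Control 1 the highest, and the groups did not overlap. Mfge8 was 1.77-fold lower (log2 fold change -0.82, SE 0.15, edgeR adjusted p = 0.0184), and lost the call without Control 1 (adjusted p = 0.0640), Control 3 (0.0617) or Insm1 library 2 (0.0535). Its relative Edil3, another integrin-binding protein, was at 77.3 ± 14.6 CPM in Insm1 and 89.1 ± 13.8 CPM in Control libraries (SD, n = 3 each; edgeR adjusted p = 0.556), and the count ratio of Mfge8 to Edil3 was 0.423, 0.514 and 0.410 in the Insm1 libraries and 0.721, 0.739 and 0.598 in the Controls. Of 10 genes of its receptors and of engulfment 9 were tested, 1 fell and none rose, with a median log2 fold change of -0.36. The gene that fell was Elmo2, an adaptor of engulfment, at 105 ± 8.21 CPM in Insm1 and 134 ± 2.75 CPM in Control libraries (SD, n = 3 each; edgeR adjusted p = 0.0305, called in 2 of the 6 fits with a library left out).

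Ptprz1 (ENSMUSG00000068748; chromosome 6, 22875502 to 23052916, plus strand) encodes a receptor tyrosine phosphatase that carries chondroitin sulfate and binds pleiotrophin and midkine. It was at 76.1, 82.5 and 76.0 CPM in the Insm1 libraries and at 156, 147 and 156 CPM in the Controls. It varied little within a group, with a coefficient of variation of 4.80% in Insm1 and 3.32% in Control libraries. Ptprz1 was 1.956-fold lower (log2 fold change -0.97, SE 0.07, edgeR adjusted p = 0.000922) and had the lowest p-value of all 13560 genes tested. Its closest relative Ptprg was at 104 ± 13.7 CPM in Insm1 and 102 ± 12.8 CPM in Control libraries (SD, n = 3 each; edgeR adjusted p = 0.970), and the count ratio of Ptprz1 to Ptprg was 0.812, 0.692 and 0.777 in the Insm1 libraries and 1.35, 1.63 and 1.54 in the Controls.

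Among 11 genes of Ptprz1 ligands and partners 3 fell and none rose, with a median log2 fold change of -0.62. The ligand gene Ptn, for pleiotrophin, fell to 70.4 ± 5.96 CPM in Insm1 libraries, against 108 ± 18.2 CPM in Controls (SD, n = 3 each; log2 fold change -0.62, edgeR adjusted p = 0.0215). The other ligand gene, Mdk, for midkine, was at 235 ± 13.47 and 212 ± 8.68 CPM in Insm1 and Control libraries (SD, n = 3 each; log2 fold change 0.15, edgeR adjusted p = 0.282). The matrix gene Tnc, for tenascin-C, fell to 6.64 ± 0.765 CPM in Insm1 libraries, against 17.6 ± 6.86 CPM in Controls (SD, n = 3 each; edgeR adjusted p = 0.0176), and the adhesion gene Nrcam to 98.3 ± 9.46 CPM, against 166 ± 19.5 CPM (SD, n = 3 each; edgeR adjusted p = 0.00559). Nrcam kept its call in all 6 fits that omit a library, and Ptn and Tnc in 3 of them, with adjusted p-values of up to 0.0910 and 0.0779.

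In 8 pairs of a gene and a partner, compared within libraries and so without any scaling between them, the groups did not overlap in 6. In each of those 6 the first gene was already called lower on the same counts, so the separation is no separate result. How often other pairs of genes separate the groups was not computed. The differences in log2 ratio, Insm1 minus Control, were -0.96 for Fabp7 to Fabp5, -0.98 for Ptprz1 to Ptprg, -0.83 for Aldoc to Aldoa, -0.81 for Ttyh1 to Ttyh3, -0.61 for Mfge8 to Edil3 and -1.08 for Slc1a3 to Glul. The exact two-sided permutation test gave p = 0.1 for each of these 6, the smallest that 3 libraries against 3 allow, and 0.133 adjusted over the 8 pairs by Benjamini-Hochberg. The design cannot reach an exact p below that value. No paralogue named in these pairs was itself called, and a p that misses the threshold does not show that a paralogue stayed the same. Some relatives outside these pairs had negative log2 fold changes, without a call. They were -0.87 for Slc1a1, -0.80 for Fabp3 and -0.37 for Ttyh2 (edgeR adjusted p = 0.151, 0.317 and 0.429). For Slc1a1 the groups did not overlap. Whether a fall is particular to a gene within its family was not tested.

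**Figure D3:**
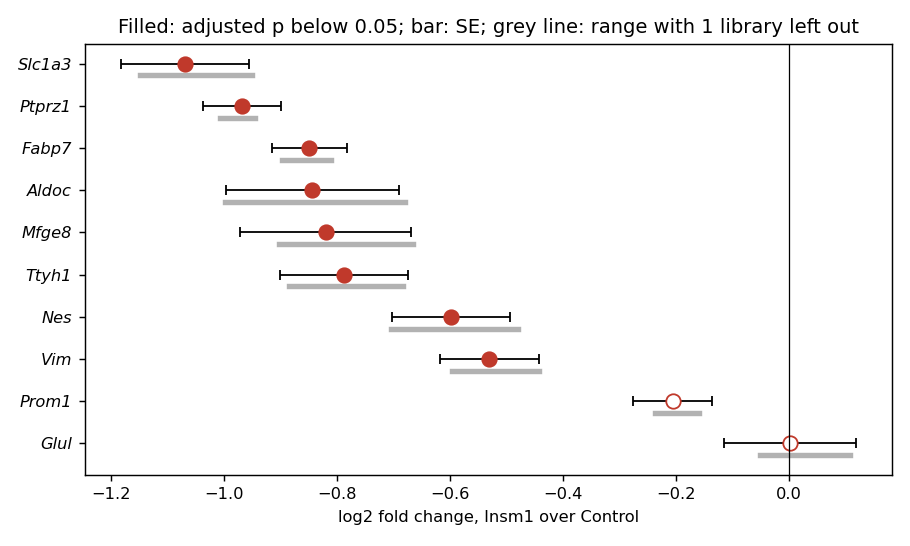
Log2 fold change, Insm1 over Control (x axis), of each of the 10 genes, with its SE as a black bar and the range over the 6 fits with 1 library left out as a grey line. Filled points passed at an edgeR adjusted p below 0.05. The genes run from Slc1a3 at -1.07 to Glul at 0.0022, and only Prom1 and Glul are open.

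Ordered by log2 fold change, the 10 genes ran from Slc1a3 through Ptprz1, Fabp7, Aldoc, Mfge8, Ttyh1, Nes, Vim and Prom1 to Glul. The order was made from these same values, so neighbours in it are close by construction. The ratio of one gene to the next within a library overlapped between the groups for 7 of the 9 neighbouring pairs. The exceptions were Ptprz1 to Fabp7, with a difference of -0.12 in log2 ratio, and Vim to Prom1, with a difference of -0.32. Slc1a3, Ptprz1, Fabp7 and Ttyh1 were called in each of the 6 fits with a library left out, at adjusted p-values of at most 0.0297, 0.0172, 0.0172 and 0.0410 by edgeR. The lower values of the Insm1 group were most often in Insm1 library 3, which was the lowest of its group for 7 of the 10 genes. Insm1 library 3 also had the fewest Insm1 counts of its group. Insm1 library 2, which had the most Insm1 counts, was the highest of its group for 5. A link between these was not tested.

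Levels of different genes were compared per length of exon, as CPM divided by the kilobases that the exons of a gene cover in GENCODE M21. That length joins the exons of all annotated transcripts of a gene, so it can exceed the length of the transcript made in these cells. How far the orders between genes depend on it was not tested. Fabp7 and Vim led, at 109 ± 6.72 and 113 ± 10.3 CPM per kb in Insm1 libraries and 196 ± 6.40 and 163 ± 16.7 CPM per kb in Controls (SD, n = 3 each). In the Controls every library had Fabp7 above the highest value of Vim, whereas in the Insm1 libraries their values overlapped. Nes and Aldoc came next, at 35.3 ± 5.59 and 27.6 ± 6.17 CPM per kb in Insm1 libraries and 53.4 ± 3.03 and 49.5 ± 5.41 CPM per kb in Controls (SD, n = 3 each), and overlapped in both groups. Ttyh1 was above Prom1 in the Controls, at 23.8 ± 2.80 and 19.3 ± 0.971 CPM per kb, and below Prom1 in the Insm1 libraries, at 13.8 ± 1.87 and 16.7 ± 0.777 CPM per kb (SD, n = 3 each), with no overlap in either group. Slc1a3, Mfge8 and Ptprz1 stood at 7.48 ± 1.115, 7.35 ± 1.25 and 5.49 ± 0.263 CPM per kb in Insm1 libraries, below Glul at 9.58 ± 0.569 CPM per kb (SD, n = 3 each). In the Controls the same 3 genes had higher means than Glul, at 15.7 ± 1.30, 12.98 ± 2.17 and 10.7 ± 0.357 CPM per kb against 9.56 ± 1.16 CPM per kb (SD, n = 3 each), though Ptprz1 and Glul overlapped there.

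**Figure D4:**
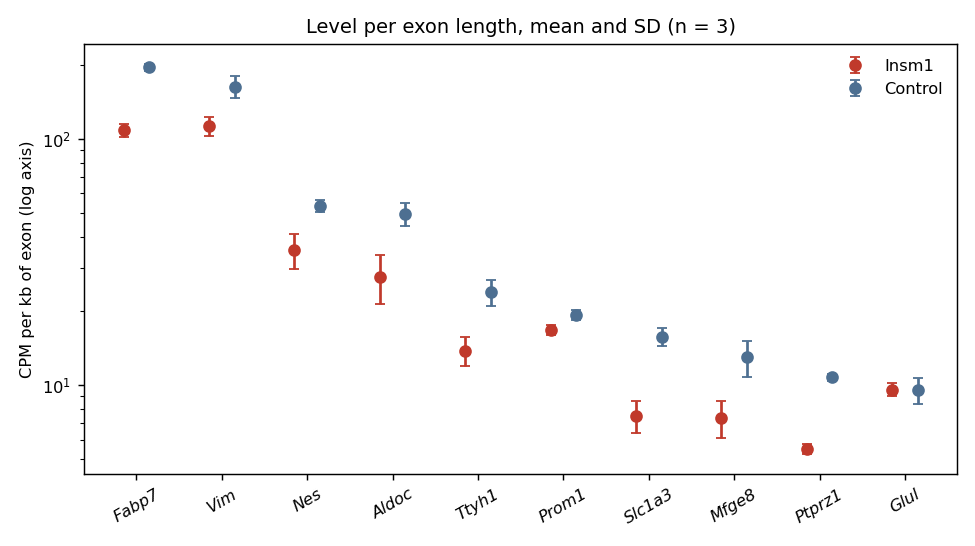
Level of each gene in CPM per kb of exon (log y axis), as the mean and SD over 3 Insm1 (red) and 3 Control (blue) libraries, ordered by the Control mean. Glul is the lowest in the Controls at 9.56, and Ptprz1 the lowest with Insm1 at 5.49.

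The deposited TPM values could not be used to order these genes. For 8318 of 8669 genes compared, 96.0%, the length by which the authors' counts had been divided was within 2% of the whole genomic span, introns included, and for 155 genes within 2% of the exon length. Slc1a3 covers 76641 bases with 8537 in exons, and Fabp7 covers 3570 bases with 1250 in exons. In the deposited TPM the Control means were 15.6 for Slc1a3 and 611 for Fabp7, and Prom1 ranked ninth of the 10 genes at 11.4 TPM, where it ranked sixth per kb of exon. The length cancels in a fold change of 1 gene between libraries.

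Likeness to other genes was measured as the root mean square difference of log2 CPM over the 6 libraries, each gene centred on its own mean, among 7690 other genes of at least 20 CPM. Fabp7 was the gene most like Ptprz1, at 0.06, and Ptprz1 was the second most like Fabp7, after Bai2 at 0.06. Most like Slc1a3 were Megf10 at 0.07 and Igfbp5 at 0.11, and most like Aldoc were Fzd9 at 0.05 and Sox3 at 0.06. For Nes they were Aif1l at 0.04 and Slc22a23 at 0.05, and for Vim they were Rcn1 at 0.05 and Ndrg2 at 0.06, with Vim itself in place 50 for Nes. Ttyh1 was nearest to Col2a1 at 0.06 and Alcam at 0.08, and Mfge8 to Nlgn1 at 0.12 and Col18a1 at 0.13. The genes nearest to Prom1 and Glul were Pole3 and Eif2d, at 0.03 and 0.02, followed by Pdzd11 and Nosip, both at 0.03. None of these was called (edgeR adjusted p = 0.252 for Pole3, 0.986 for Eif2d, 0.362 for Pdzd11 and 0.955 for Nosip). The genes named as most like the other members were all called except Sox3 (edgeR adjusted p = 0.0622) and Col18a1 (0.0587). Likeness over the 6 libraries takes in the difference between the groups, so near genes have like fold changes by construction and their calls are no separate result.

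**Figure D5:**
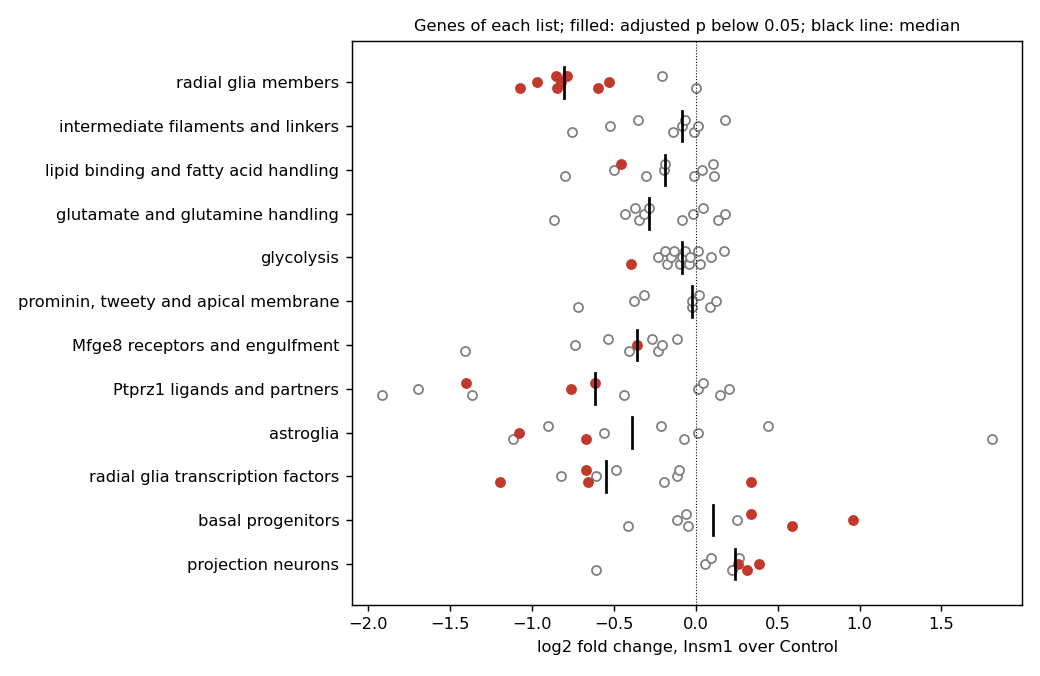
Log2 fold change, Insm1 over Control (x axis), of each tested gene in the radial glia set, in the 7 lists of related genes and in the lists for astroglia, radial glia transcription factors, basal progenitors and projection neurons. The other cell type lists are not drawn. Filled points passed at an edgeR adjusted p below 0.05 and black lines are medians of the lists drawn, from -0.80 for the 10 radial glia genes to 0.24 for projection neuron genes. Among lists not drawn, medians were lower for Cajal-Retzius cells (-1.98), choroid plexus (-0.96, 1 gene tested) and interneurons (-0.83). They were higher for red-cell genes (1.02) and pericytes (0.25, 2 genes tested). No gene of these undrawn lists was called.

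Some genes of neurons, basal progenitors and S phase were called as well. Of 8 projection neuron genes 3 rose and none fell, Tubb3, Neurod6 and Bcl11b, with a median log2 fold change of 0.24, and the 8 summed to between 7923 and 8609 CPM in Insm1 libraries and between 6898 and 7218 CPM in Controls. Of 8 basal progenitor genes 3 rose and none fell, Nhlh1, Sstr2 and Mfng, but 4 of the 8 had a negative log2 fold change and the median was 0.10. Nhlh1, a bHLH factor of early neurons, was at 79.5 ± 9.55 CPM in Insm1 and 40.9 ± 3.74 CPM in Control libraries (SD, n = 3 each; edgeR adjusted p = 0.00525). Of 10 S-phase genes 3 fell, Mcm3, Mcm4 and Mcm5, and all 10 had a negative log2 fold change, with a median of -0.30. Of 8 mitosis genes none was called, and 6 had a negative log2 fold change. None of the 7 microglial and none of the 3 Cajal-Retzius genes was called. The 3 Cajal-Retzius genes had a median log2 fold change of -1.98. Microglial genes summed to between 7.34 and 27.1 CPM in Insm1 libraries and between 0.777 and 51.9 CPM in Controls, and Cajal-Retzius genes to between 30.3 and 46.6 CPM in Insm1 libraries and between 30.2 and 122 CPM in Controls. Among the Controls, Control 2 had the highest microglial sum and the lowest Cajal-Retzius sum. The part of these differences in the fall of the radial glia genes was not tested.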

How the data were processed

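RNA of mCherry-positive cells was read as single 75-base reads from poly-dT-primed cDNA, amplified for 12 cycles and then for 15 as a library, per the labels' protocols, which mention no molecular identifiers, and amplified fragments were counted. Bcl2fastq, TopHat2 2.0.13, Bowtie and the GRCm38 build appear in the submitters' processing notes. How reads were assigned to genes, and whether by strand, is not stated, nor is the annotation release given in the sources used here. Per Ensembl gene, the authors deposited whole-number counts, and TPM, in which the authors' counts are divided by 1 length per gene (333 genes have none).

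The whole count table was fitted with edgeR 4.0.16 (R 4.3.3): filterByExpr, TMM scaling, a quasi-likelihood fit (robust) with group as the sole term, two-sided, with Benjamini-Hochberg adjustment over 13560 genes and a threshold of 0.05. SEs come from each gene's F statistic and log2 fold change. The fit was tested on simulated data. Log2 CPM had a prior count of 2, and count ratios within libraries had exact permutation tests. Coordinates and exons are of GENCODE M21, which holds 21492 of the 22001 identifiers, and promoters of RefSeq (GRCm38.p6), where all 10 genes matched. Shared 75-base stretches were counted over GENCODE M21 transcripts.

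Labels number the libraries but name no litters or pools, so p-values measure only the spread between these samples, which may be technical. Libraries of 1 group differed by 12.4 to 31.1 in chi-square per degree of freedom, and each counted as 1 sample. Control 2 gave the highest values, 31.1 against Control 1 and 30.0 against Control 3, where Controls 1 and 3 gave 12.4. The 10 genes and all lists were chosen with earlier results of these data known. The genes named are the 10, Insm1, the partners, the 2 genes nearest to each and, from the lists, by size of change up to 3 called genes of a related list (or its most abundant gene where none was called) and up to 2 called genes and the 2 most abundant of a cell type list, not all of which are printed. Ina, Dst, Mdk, Sox9, Pax6, Mfng, Bcl11b, the last of the 3 Mcm genes, Gfap, Gjb6 and Prom2 fall outside that rule, having been picked with their values in view. The same holds for Slc1a1, Fabp3 and Ttyh2. As alternatives, scaling by RLE or upper quartile, DESeq2 1.42.0, limma 3.58.1 on log2(TPM + 1) or log2(TPM + 0.1), dropping the filter or requiring 5 CPM in 3 libraries, blocking on the replicate number, a fit that was not robust and the omission of each library were run.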

Additional observations from a re-analysis of the deposited data

How the results depend on the processing

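Of the alternatives tried, none called any of the 10 genes higher, and none called Prom1 or Glul. Fabp7, Slc1a3, Ptprz1 and Ttyh1 were called in all 15 alternative settings, Vim in 14, Nes in 12, Aldoc in 10 and Mfge8 in 9. The number called lower was 8 as reported and lay between 4 and 8 with single libraries left out, at 5 without Control 1 and 4 without Control 3. It was 6 by limma on log2(TPM + 1) and log2(TPM + 0.1), where Aldoc (adjusted p = 0.0581 and 0.0599) and Mfge8 (0.0515 and 0.0547) were not called. The median log2 fold change of the 10 genes stayed between -0.88 and -0.67. Over all genes 454 were called as reported, 1017 by DESeq2, 152 and 148 by limma on log2(TPM + 1) and log2(TPM + 0.1), and between 101 and 631 with single libraries left out: 221 without Control 1, 101 without Control 3, 176 without Insm1 library 2 and 196 without Insm1 library 3. The highest number, 631, was without Control 2. With the replicate number as a block, 331 genes and 7 of the 10 were called, without Mfge8 (adjusted p = 0.0711). Deviations of same-numbered libraries from their group means correlated at 0.07, 0.03 and -0.06, so the numbers were not taken to pair libraries. Of the 8 within-library ratios, 7 kept their direction whichever library was left out. The deposited TPM and the replicate block were also run, but they could not change the direction of such a ratio. Vim to Nes, at 0.08, was -0.028 without Control 2 and between -0.028 and 0.15 over the libraries left out; the cause was not tested. The 10 genes had at least 858 counts in each library, and the effect of depth on their calls was not tested. Gfap, Prom2 and the endothelial markers were too scarce to test.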

Other observations

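Among transcription factors of radial glia, calls went both ways, though 9 of the 10 had a negative log2 fold change. Of 10 such factors 3 fell and 1 rose, with a median log2 fold change of -0.55. Id4, an inhibitor of bHLH factors, was at 232 ± 47.7 CPM in Insm1 and 531 ± 10.04 CPM in Control libraries, Nr2e1, an orphan receptor of neural stem cells, at 91.3 ± 10.3 and 145 ± 5.01 CPM, and Sox9, a factor of progenitors and astroglia, at 192 ± 39.7 and 303 ± 25.4 CPM (SD, n = 3 each; edgeR adjusted p = 0.00525, 0.00559 and 0.0393). Lhx2, a selector of cortical identity, rose to 919.9 ± 73.0 CPM in Insm1 libraries, against 727 ± 68.6 CPM in Controls (SD, n = 3 each; edgeR adjusted p = 0.0498). Pax6, at 129 ± 9.36 and 138 ± 6.65 CPM in Insm1 and Control libraries, and Hes5, at 1165 ± 107 and 1259.8 ± 211 CPM, overlapped between the groups (SD, n = 3 each; edgeR adjusted p = 0.567 and 0.718). Sox9 and Lhx2 lost the call without at least 1 library, with adjusted p-values of up to 0.135 and 0.203.

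Genes of later astroglia were partly present at this age. Of 11 such genes 10 were tested and 2 fell, with a median log2 fold change of -0.39. Among those that fell, the gap junction gene Gja1 was at 45.7 ± 8.41 CPM in Insm1 and 72.5 ± 10.3 CPM in Control libraries (SD, n = 3 each; edgeR adjusted p = 0.0391), and it was called in 1 of the 6 fits with a library left out. Cst3 was at 116 ± 6.40 and 115 ± 9.18 CPM in Insm1 and Control libraries (SD, n = 3 each; edgeR adjusted p = 0.967). Gjb6 had 0 counts in all 6 libraries, which allows up to 3 counts in each.

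Interneuron genes summed to between 5.40 and 8.21 CPM in Insm1 libraries and between 8.31 and 16.1 CPM in Controls, and none of the 6 was called by edgeR. Their median log2 fold change was -0.83, and 5 of the 6 had a negative one. Genes of oligodendrocyte precursors summed to between 0.810 and 1.78 CPM in Insm1 libraries and between 1.26 and 1.70 CPM in Controls, and pericyte genes to between 1.03 and 2.78 CPM in Insm1 libraries and between 1.24 and 2.17 CPM in Controls. Of 9 immediate early and stress genes 1, Jun, fell and none rose.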
